A study of Homo sapiens with 6 samples.

Results

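The A375 population living in 4 µM dabrafenib was compared with the one living in 500 nM, to ask what the last 3 doublings of the dose add to cells that already live with the drug. A375 is a human melanoma line of genotype BRAF-V600E, and dabrafenib is an inhibitor of the mutant BRAF kinase. Every cell whose name carries the tag of the 4 µM or of the 500 nM population was used, 705 and 678 cells, which together are 1383 of the 8505 cells of the A375 table. The 854 cells at 1 µM and the 833 cells at 2 µM serve as the doses in between. All 4 populations share the BRAF-V600E genotype and the drug, and differ by its dose. They were derived from drug-naïve cells by stepwise escalation through 30, 60, 125 and 250 nM, and none of them is untreated. Each population was 1 culture, so time in culture and dose cannot be told apart. Cells were tagged with CellPlex oligonucleotides, pooled with the other A375 populations and read as 3′ single-cell RNA libraries in 2 sequencing runs. With 1 culture per population no test between doses is possible, no p-value is given, and a difference is described by its size. Ranges in parentheses are 95% intervals of the counting error alone, and where a pair of levels is joined by "against", the 4 µM level comes first.

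The data are counts of unique molecular identifiers (UMIs), each standing for 1 captured RNA molecule. UMIs were summed per population and expressed per 1000000 (CPM). The 4 populations held 6841277, 9193771, 8765841 and 7637903 UMIs from 500 nM to 4 µM, with medians of 8738 to 9804 UMIs per cell. A gene without a UMI can have had up to 0.439 CPM at 500 nM and 0.393 CPM at 4 µM, the level of 3 counts. No cell barcode occurred in more than 1 population. Mitochondrial UMIs made up 20% or more in 75 of the 4 µM cells (10.6%) and in 28 of the 500 nM cells (4.13%). Of the 4 µM cells 455 (64.5%), and of the 500 nM cells 493 (72.7%), are listed in a table in which the authors number expression clusters.

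Smooth muscle cells contract through actin, myosin light chains and regulators such as transgelin and calponin. Many of these genes are switched on together by serum response factor (SRF), which binds DNA at a motif called the CArG box, and its coactivator myocardin. Melanocytes descend from the neural crest, and melanoma lines can hold cells with glial or neural crest genes or with mesenchymal genes in place of pigment genes. The BRAF kinase drives the MAPK pathway, whose transcriptional output includes the feedback inhibitors of the Sprouty and DUSP families.

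The CArG box was looked up in the 250 bases before the RefSeq start of each gene, since contractile genes lead the comparison. Of the 98 genes that were 2-fold higher at 4 µM, 77 had a promoter in the RefSeq table (GRCh38.p14) and 6 of these (7.79%) held a CArG box on either strand, namely ACTG2, LDB3, LMNTD1, LMO3, MYL7 and MYLK. Among the 110 genes that were 2-fold lower it was 2 of 88 (2.27%), among all measured genes 128 of 7770 (1.65%), and among all RefSeq promoters 394 of 27305 (1.44%). The motif GGAATG of the TEAD factors, searched on both strands, was in 18 of the 77 (23.4%), in 15 of the 88 (17%), in 1018 of the measured 7770 (13.1%) and in 3902 of all promoters (14.3%). LMNTD1, LMO3 and MYL7 held both motifs, whose end and start letters can coincide. A match describes the letters alone, and the promoters of TAGLN, MYL9 and MYOCD were not searched here. Shown are the promoter stretches of 2 muscle genes that were higher at 4 µM, 5′ to 3′, with the CArG box in capitals. ACTG2 encodes the actin of gut smooth muscle and MYL7 a myosin light chain of the heart atrium.
ACTG2, chr2:73892758-73892934, plus strand: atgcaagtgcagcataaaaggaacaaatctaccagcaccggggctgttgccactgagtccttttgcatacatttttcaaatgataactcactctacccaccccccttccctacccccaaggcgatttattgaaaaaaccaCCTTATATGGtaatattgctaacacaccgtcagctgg
MYL7, chr7:44141333-44141582, minus strand: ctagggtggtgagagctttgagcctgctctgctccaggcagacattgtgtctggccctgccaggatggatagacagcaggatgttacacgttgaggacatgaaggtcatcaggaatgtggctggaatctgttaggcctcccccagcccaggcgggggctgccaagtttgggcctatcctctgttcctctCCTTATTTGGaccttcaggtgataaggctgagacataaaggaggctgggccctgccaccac
The box of ACTG2 lies 110 to 101 bases before the start, and a further box, CCTTTTTAGG, lies beyond the stretch shown, at 73 to 64 bases before it. That of MYL7 lies 61 to 52 bases before the start. The ACTG2 stretch is inside the gene as GENCODE v29 draws it (73892314 to 73919865), without touching an exon, and the MYL7 stretch is outside its gene (44138864 to 44141332).

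Genes entered the comparison as measured if the population with the higher level gave them 10 CPM and 20 UMIs or more, and were counted as different at 2-fold or more in the ratio of CPM + 1. Of 9598 measured genes 208 (2.17%) differed, 98 of them (1.02%) higher and 110 (1.15%) lower at 4 µM, and the median log2 ratio of all was -0.05. Named ratios are therefore ratios against a background that is close to level. Counts of list members given below stand beside these shares of 1.02% higher and 1.15% lower. BRAF itself (chromosome 7, 140719327 to 140924928, minus strand, GENCODE v29, GRCh38) stood at 106 CPM at 500 nM, 89.2 at 1 µM, 90.6 at 2 µM and 98.6 at 4 µM, 1.07-fold lower over the whole range (0.967 to 1.19).

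**Figure D1:**
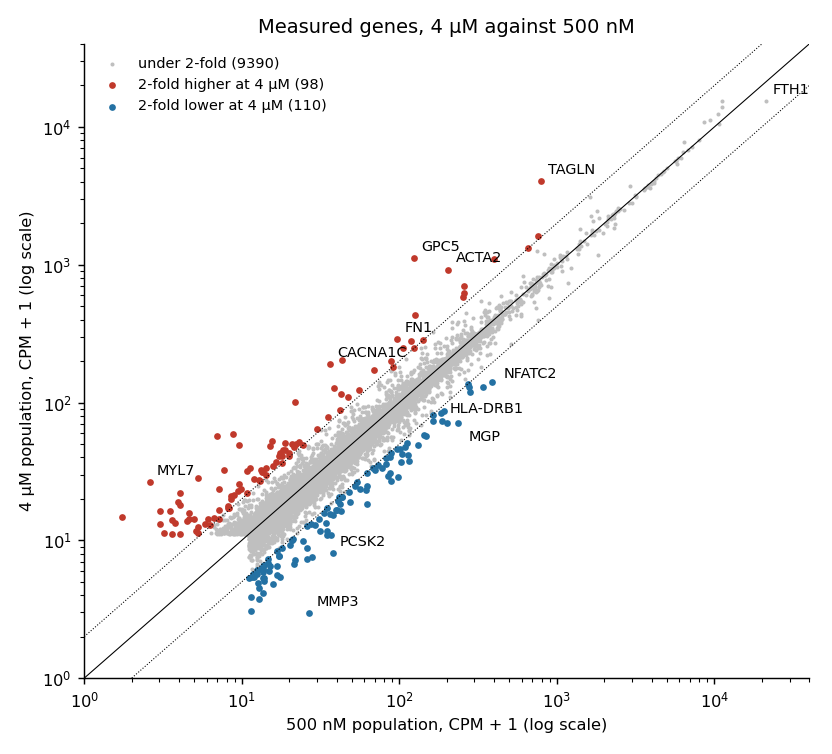
Each point is a measured gene, with its CPM + 1 in the 500 nM population on the x axis and in the 4 µM population on the y axis, both on log scales. The solid line marks equal values and the dotted lines 2-fold. The 98 genes above the upper line, in red, reach up to TAGLN at 4066 CPM, and the 110 genes below the lower line, in blue, reach up to NFATC2 at 389 CPM in the 500 nM population.

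GPC5 and TAGLN were highest at 4 µM, but neither was particular to that population. Their 4 µM values were 1.24-fold and 1.71-fold those at 2 µM. GPC5 (chromosome 13, 91398607 to 92873682, plus strand), a glypican that carries heparan sulphate at the cell surface, stood at 123 CPM at 500 nM, 402 at 1 µM, 902 at 2 µM and 1122 at 4 µM. Each dose lay above the one before, and the 4 µM value was 9.11-fold that at 500 nM (8.49 to 9.79). TAGLN (chromosome 11, 117199321 to 117204782, plus strand) encodes transgelin, an actin-binding protein of smooth muscle, and stood at 795 CPM at 500 nM, 1253 at 1 µM, 2385 at 2 µM and 4066 at 4 µM. Its ratio was 5.11 (4.97 to 5.26). Both genes were low below 500 nM: across the untreated population and the 30 to 250 nM populations TAGLN lay between 166 and 460.2 CPM and GPC5 between 36.8 and 79.1 CPM. Of the 17 measured genes of the heparan sulphate list, GPC5 was the 1 that was 2-fold different, and its relative GPC6 was at 544 against 496 CPM. EXT1, a polymerase of the heparan sulphate chain, stood at 735 against 678 CPM.

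Contractile genes of smooth muscle formed the group with the highest median ratio among the lists with at least 9 measured members. Of the shorter lists, the vascular smooth muscle and pericyte markers (6 measured) had a median log2 ratio of 1.08 and the fibroblast markers (4 measured) 1.02. Of the 26 measured contractile genes 11 were 2-fold higher at 4 µM (1.02% of all measured genes) and 0 were lower (1.15% of all). A ratio above 0 was found for 25 of these 26 genes. Their median log2 ratio was 0.81, against -0.05 for all measured genes. Summed over the list, the level was 6336 CPM at 500 nM, 7727 at 1 µM, 10972 at 2 µM and 14923 at 4 µM. The tropomyosin TPM2 had the highest level of the list at 500 nM, with 1625 CPM and TAGLN at 795, and TAGLN the highest at 4 µM, with 4066 CPM and TPM2 at 3088.

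Among the filament proteins, ACTA2, the smooth muscle actin, stood at 204 CPM at 500 nM, 293 at 1 µM, 599 at 2 µM and 921 at 4 µM, 4.51-fold higher over the range (4.26 to 4.78). ACTG2 went from 3.07 to 17.0 CPM, a ratio of 5.54 (3.48 to 9.26), with most of the difference between 2 µM (5.48 CPM) and 4 µM. CNN1, the calponin that restrains actomyosin, was at 4.24, 6.31, 16.3 and 27.2 CPM, 6.42-fold higher (4.34 to 9.83). LMOD1, an actin nucleator of smooth muscle, was at 20.8, 27.0, 54.5 and 99.8 CPM, 4.81-fold higher (4.01 to 5.79). For ACTA2, ACTG2, CNN1 and LMOD1 the step from 500 nM to 1 µM was the smallest of the 3.

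Of the myosin genes, MYL9, the regulatory light chain of smooth muscle, stood at 257 CPM at 500 nM and 694 at 4 µM, 2.70-fold higher (2.56 to 2.85). MYLK, the kinase that phosphorylates this chain, stood at 125 and 430.2 CPM, 3.44-fold higher (3.19 to 3.71). MYLK was level between 500 nM and 1 µM, at 125 and 131 CPM, and higher from 2 µM on at 256 CPM. MYL7 (chromosome 7, 44138864 to 44141332, minus strand) had the highest ratio of the genes with 25 CPM or more: 1.61 CPM at 500 nM, 2.50 at 1 µM, 8.56 at 2 µM and 25.4 at 4 µM, or 15.8-fold (8.64 to 32.2). At 500 nM that value rests on 11 UMIs. MYH11, the myosin heavy chain of mature smooth muscle, was not measured, with 2.78 CPM at 500 nM and 1.70 at 4 µM.

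Channels of the contractile cell moved unequally. CACNA1C, the pore of the L-type calcium channel, stood at 35.1 CPM at 500 nM, 73.5 at 1 µM, 125 at 2 µM and 189 at 4 µM, 5.40-fold higher (4.70 to 6.21). CACNB2, a beta subunit of such channels, had 32.3 against 10.2 CPM, a ratio of 3.16 (2.41 to 4.18). KCNMB1, the accessory subunit of the large-conductance potassium channel, had 15.3 against 2.48 CPM, a ratio of 6.16 (3.69 to 10.9). The pore subunit of that same channel, KCNMA1, was 2.12-fold lower (1.86 to 2.43) at 45.3 against 96.2 CPM. KCNMA1 is not on the contractile list, so the count of 0 lower members leaves it out.

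The regulators MYOCD, SRF, MKL1 and MKL2 had smaller ratios than TAGLN, ACTA2, CNN1 and LMOD1. For MYOCD the log2 ratio of 1.17 still lay above the contractile list's median of 0.81. MYOCD, myocardin, stood at 87.7, 129, 163 and 199 CPM over the 4 doses, 2.27-fold higher (2.07 to 2.50). SRF was at 9.65 CPM at 500 nM and 14.7 at 4 µM, a log2 ratio of 0.56, and the actin-sensing coactivators MKL1 and MKL2 had log2 ratios of 0.16 and 0.10. Actin-binding proteins found in many cell types lay under 2-fold, with log2 ratios of 0.93 for the tropomyosin TPM2, 0.75 for TPM1, 0.71 for filamin FLNA and 0.48 for vinculin VCL. CALD1, caldesmon, was at the 2-fold line with 1314 against 656 CPM (2.00-fold, 1.93 to 2.08).

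**Figure D2:**
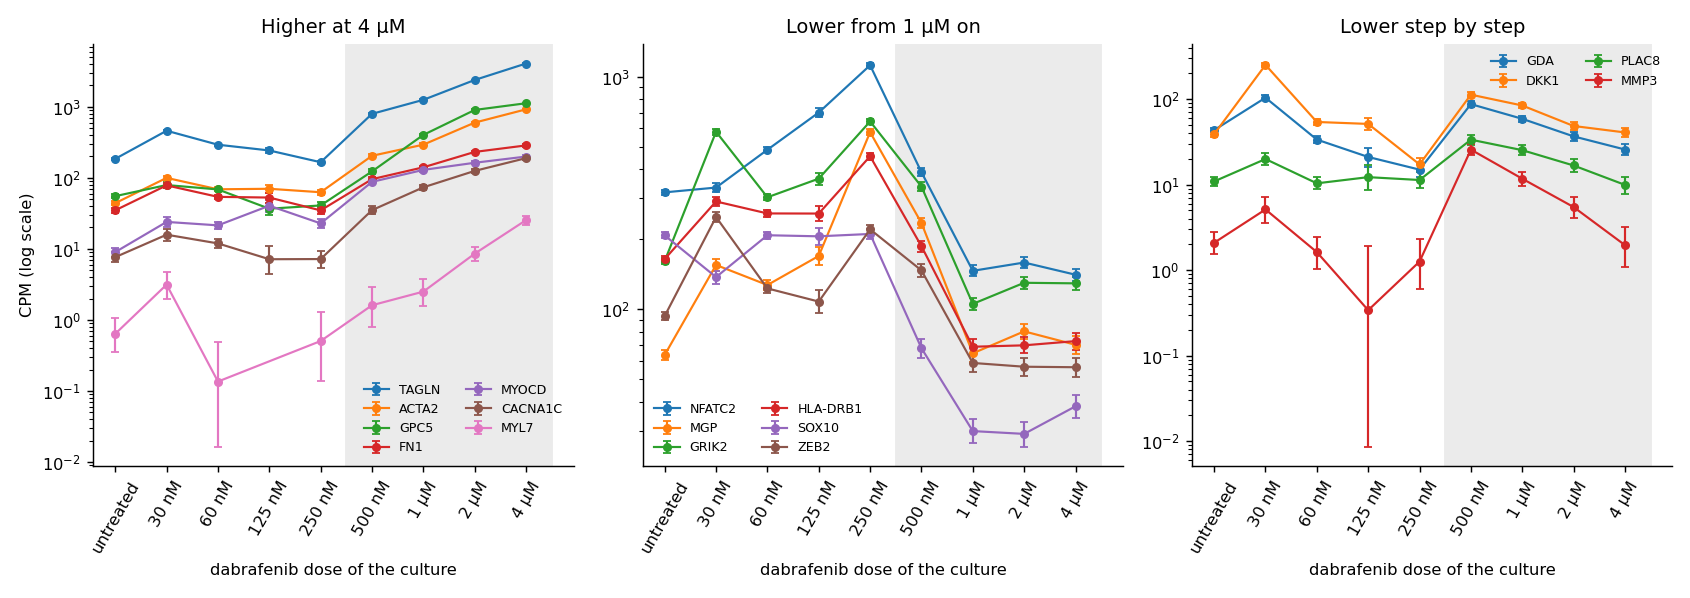
The CPM of 17 genes, on a log scale, is drawn against the dabrafenib dose of all 9 A375 cultures, with 95% counting intervals and with the 500 nM to 4 µM cultures shaded; MYL7 has no point at 125 nM because no UMI was counted there. In the left panel TAGLN, ACTA2, GPC5, FN1, MYOCD, CACNA1C and MYL7 are each highest at 4 µM, in the middle panel the largest difference among the shaded doses is that between 500 nM and 1 µM, and in the right panel GDA, DKK1, PLAC8 and MMP3 are lower at each dose from 500 nM on.

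Further genes with the highest ratios were of other kinds. TMEM132D, a membrane protein, had 56.4 against 5.99 CPM, a ratio of 9.42 (6.83 to 13.3). LMO3, a LIM-only transcriptional cofactor, had 58.3 against 7.75 CPM, a ratio of 7.52 (5.65 to 10.2). LAMA1, a laminin chain of basement membranes, was at 8.62, 25.3, 39.6 and 48.3 CPM, 5.60-fold higher (4.25 to 7.50), with its largest step from 500 nM to 1 µM. MCTP2, a calcium-binding membrane protein, had 201 against 42.5 CPM, a ratio of 4.73 (4.17 to 5.38). TMEM132D, LMO3, LAMA1 and MCTP2 each had a higher value at every dose than at the dose before.

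The extracellular matrix list was divided. Of 31 measured members 4 were 2-fold higher and 3 lower, with a median log2 ratio of 0.25. FN1, fibronectin, stood at 95.7, 141, 231 and 286 CPM, 2.99-fold higher (2.74 to 3.26), and COL3A1, a fibrillar collagen, had 17.9 against 2.92 CPM (6.14-fold, 3.82 to 10.4). LUM, the keratan sulphate proteoglycan lumican, had 44.0 against 17.7 CPM (2.49-fold, 2.01 to 3.09), and POSTN, periostin, 181 against 89.7 CPM (2.01-fold, 1.83 to 2.22). MMP1 and MGP were among the 3 lower members. The interstitial collagenase MMP1 was 3.89-fold lower (2.55 to 6.10), at 14.8, 11.3, 5.59 and 3.80 CPM over the 4 doses. MGP, matrix Gla protein, an inhibitor of calcification, was 3.34-fold lower (3.03 to 3.69) at 70.3 against 235 CPM.

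MMP3 (chromosome 11, 102835801 to 102843803, minus strand), the stromelysin that cleaves matrix and activates collagenases, had the lowest ratio of the comparison. It stood at 25.7 CPM at 500 nM, 11.7 at 1 µM, 5.48 at 2 µM and 1.96 at 4 µM, 13.1-fold lower (7.73 to 23.9). Its log2 ratio was -1.07, -0.98 and -1.13 at the 3 successive steps. GDA, guanine deaminase, was at 87.6, 59.0, 36.7 and 25.8 CPM, 3.39-fold lower (2.89 to 4.01), and PLAC8, a small cysteine-rich protein, was at 33.6, 25.3, 16.8 and 9.95 CPM, 3.38-fold lower (2.60 to 4.44). DKK1, a secreted inhibitor of WNT signalling, was 2.77-fold lower (2.42 to 3.16) at 113, 84.4, 48.6 and 40.8 CPM. In contrast to the genes described next, MMP3, GDA, PLAC8 and DKK1 went on to lower values above 1 µM.

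Most of the lower genes took their difference between 500 nM and 1 µM. Of 9526 genes measured in that step 124 (1.3%) differed by 2-fold or more, 110 of them (1.15%) lower and 14 (0.147%) higher. From 1 to 2 µM 11 of 9377 genes (0.117%) differed, 8 of them (0.0853%) higher and 3 (0.032%) lower. From 2 to 4 µM 19 of 9458 genes (0.201%) differed, 17 of them (0.18%) higher and 2 (0.0211%) lower. For the 110 genes lower at 4 µM than at 500 nM the median log2 ratio was -1.23 in the first step, -0.02 in the second and -0.02 in the third, and the first step was the largest for 91 of them. For the 98 higher genes the medians were 0.52, 0.38 and 0.48, and the largest step was the first for 43, the second for 22 and the third for 33. Of the 98 higher genes 76 (77.6%) had a higher value at each dose than at the dose before, and of the 110 lower genes 28 (25.5%) a lower one. Among all measured genes with a ratio above 0 the share in such an order was 14.7%, and among those below 0 it was 13.4%. These shares are a description, since neighbouring steps share a population and the genes were taken by the whole difference.

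Across all 9 A375 cultures the higher and the lower genes also had other peaks. Of the 98 higher genes 82 were highest at 4 µM and 35 lowest in untreated cells, and their median log2 ratio over untreated cells was 0.05 at 250 nM, 1.17 at 500 nM, 1.86 at 1 µM, 2.35 at 2 µM and 2.92 at 4 µM. Of the 110 lower genes 44 were highest at 250 nM, 35 at 30 nM and 17 at 500 nM. Their median over untreated cells was 0.99 at 250 nM, 0.74 at 500 nM, -0.66 at 1 µM and -0.71 at 4 µM. Both sets were chosen by the ratio of 4 µM to 500 nM, so where they peak follows in part from that choice. The same counts were not made over all measured genes, and these are a description. Over all measured genes the root mean square log2 distance was 0.64 between 250 and 500 nM, 0.27 between 500 nM and 1 µM, 0.17 between 1 and 2 µM and 0.20 between 2 and 4 µM, so the distance across the last 3 doublings together (0.33) was smaller than that of the doubling just before them.

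Part of the neural crest and glial genes were lower from 1 µM on. Of 27 measured members 6 were 2-fold lower at 4 µM than at 500 nM (1.15% of all measured genes) and 0 higher, with a median log2 ratio of -0.34. At 1 µM 10 were already 2-fold lower than at 500 nM (1.15% of all genes measured in that step), with a median of -0.52. ZEB2, a neural crest transcription factor, was at 147, 58.7, 56.6 and 56.3 CPM, 2.61-fold lower (2.33 to 2.93), and CDH19, a cadherin of Schwann cell precursors, was 2.35-fold lower (2.02 to 2.75) at 32.6 against 76.7 CPM. FOXD3, which holds neural crest cells undifferentiated, was 3.41-fold lower (2.31 to 5.15) at 4.58 against 15.6 CPM. The values at 1, 2 and 4 µM lay close together for ZEB2 and CDH19.

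SOX10, a transcription factor of the whole melanocyte and glial lineage, was at 68.0 CPM at 500 nM, 29.9 at 1 µM, 29.1 at 2 µM and 38.2 at 4 µM. Its ratio over the whole range, 1.78-fold lower (1.53 to 2.07), was under 2-fold, and the 4 µM value lay above those at 1 and 2 µM. Of 11 measured melanocyte genes S100B, a calcium-binding marker of glia and melanocytes, was 2-fold lower, at 110, 36.2, 40.4 and 49.9 CPM (2.21-fold, 1.95 to 2.51). APOE, the lipid carrier apolipoprotein E, was 2-fold higher at 26.8 against 10.96 CPM (2.45-fold, 1.87 to 3.23), and the list's median log2 ratio was -0.41. The pigment gene DCT stood at 31.03 against 43.6 CPM, and MITF, the master regulator of pigment cells, at 91.1 against 143 CPM. The defining pigment genes PMEL, MLANA, TYR and TYRP1 were not measured and lay at 2.05 CPM or less at 500 nM and at 4 µM, and TYR had no UMI at 4 µM.

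Genes of several other kinds differed in the same step. NFATC2, a calcium-regulated transcription factor, stood at 389 CPM at 500 nM, 146 at 1 µM, 159 at 2 µM and 141 at 4 µM, 2.76-fold lower (2.57 to 2.97). GRIK2, a kainate receptor subunit, was at 337, 105, 130 and 129 CPM, 2.61-fold lower (2.42 to 2.81). The prohormone convertase PCSK2 had 7.07 against 36.8 CPM (5.21-fold, 3.87 to 7.13). TAC1, the precursor of substance P, had 27.9 against 97.2 CPM (3.49-fold, 2.98 to 4.09), and SCRG1, first found in prion disease, 6.55 against 27.0 CPM (4.13-fold, 3.01 to 5.77). ZNF536, a zinc finger repressor of neuronal differentiation, was 3.54-fold lower (2.90 to 4.33), the angiopoietin-like protein ANGPTL7 3.61-fold lower (2.78 to 4.74) and the solute carrier SLC35F1 3.098-fold lower (2.70 to 3.56). For NFATC2, GRIK2, PCSK2, TAC1, SCRG1, ZNF536, ANGPTL7 and SLC35F1 the 1 µM value was already 2-fold lower than that at 500 nM.

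The list of neuronal adhesion and channel genes went both ways. Of 46 measured members 6 were 2-fold higher and 6 lower, with a median log2 ratio of -0.03. Besides CACNA1C, the higher ones were the potassium channel KCND2 (12.3 against 2.78 CPM, 4.43-fold, 2.69 to 7.69), the adhesion molecule TENM2 (627 against 255 CPM, 2.46-fold, 2.33 to 2.60), the guidance receptor ROBO2 (580 against 251 CPM, 2.31-fold, 2.18 to 2.44), and the cadherins CDH6 (49.4 against 19.9 CPM) and CDH11 (15.6 against 6.14 CPM). The 6 lower ones were CDH4, SEMA3D, KCNMA1, GRIK2, NTM and LSAMP. CDH4, retinal cadherin, was lower from 2 µM on, at 20.3, 22.3, 13.2 and 5.76 CPM, 3.53-fold lower (2.50 to 5.07).

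Class II antigen presentation genes were lower from 1 µM on, while class I genes were close to level. Of the 23 measured genes of the list 2 were 2-fold lower at 4 µM, CIITA and HLA-DRB1, and 5 were 2-fold lower at 1 µM than at 500 nM. CIITA, the activator of class II genes, stood at 33.6, 9.57, 10.4 and 10.7 CPM, 3.13-fold lower (2.42 to 4.08). HLA-DRB1, a class II beta chain, was at 187, 69.0, 69.9 and 72.9 CPM, 2.56-fold lower (2.32 to 2.83), with the caution that its close copies can share reads. Among class II genes that are not on the list, HLA-DRB5, HLA-DQA1, HLA-DQA2 and HLA-DMB were also 2-fold lower, by 2.32-fold (2.04 to 2.64), 2.36-fold (1.91 to 2.93), 2.47-fold (1.99 to 3.096) and 2.18-fold (1.62 to 2.96), with the same caution for the first 3. HLA-DRA and CD74, which complete and chaperone the complex, had log2 ratios of -0.94 each, short of 2-fold. The class I genes HLA-B, HLA-C and B2M had log2 ratios of 0.27, 0.26 and 0.14. The difference between class I and class II was not tested.

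No measured target of the MAPK pathway was 2-fold different between the doses. Of 17 measured targets 0 were 2-fold higher and 0 lower, with a median log2 ratio of -0.18. A ratio below 0 was found for 12 of the 17, beside 5708 of all 9598 measured genes. SPRY4, one of the Sprouty feedback inhibitors, was at 11.8, 9.35, 9.35 and 10.3 CPM (1.14-fold lower, 0.829 to 1.58), the phosphatase DUSP6 at 55.4 against 87.4 CPM, and the cyclin CCND1 at 98.1 against 111 CPM. Immediate early factors had a median log2 ratio of -0.22 over 17 genes, none of them 2-fold different, with the lowest value for KLF2 (17.5 against 36.0 CPM). Of these factors 14 had a ratio below 0. Kinases of the RAS to ERK chain had a median of -0.03 over 20 genes, none of them 2-fold different. Among 29 receptor kinases and ligands PDGFD, a PDGF receptor ligand, was 2.64-fold higher (1.91 to 3.68) at 20.03 against 7.60 CPM, with the whole difference between 2 and 4 µM, and AREG, an EGFR ligand, was 2.40-fold lower (1.58 to 3.71) at 4.45 against 10.7 CPM.

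Targets of YAP and TEAD were level: of 24 measured, 0 were 2-fold different, and the median log2 ratio was -0.07. The TGF-beta list had 3 of 25 lower and 0 higher, among them the co-receptor TGFBR3 (4.06 against 12.9 CPM, 3.17-fold, 2.08 to 4.94) and the activin binder FST (32.2 against 67.1 CPM, 2.08-fold, 1.78 to 2.44). The ligand TGFB2 was at 78.0 against 44.0 CPM, a log2 ratio of 0.81. Of 10 integrin subunits ITGA2 and ITGB8 were 2-fold lower, at 45.3 against 99.5 CPM and 42.2 against 88.0 CPM, and the fibronectin receptor chain ITGA5 was at 91.4 against 48.1 CPM, a log2 ratio of 0.91.

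Lists of metabolism and stress held few genes that were 2-fold different, and a single such gene is not read as a result about its list. The 13 mitochondrially encoded respiratory genes all had a ratio above 0, with a median log2 of 0.33 over the whole range and 0.25 between 2 and 4 µM, and 0 reached 2-fold. Cells with 20% or more mitochondrial UMIs were likewise more frequent at 4 µM (10.6%, against 3.12% at 2 µM), and their part in this median was not tested. The 72 nuclear respiratory genes had a median of 0.07. Targets of the integrated stress response had a median of 0.23 from 500 nM to 1 µM, -0.10 from 1 to 2 µM and -0.32 from 2 to 4 µM. Among them PSAT1 of serine synthesis stood at 209, 262, 229.6 and 118 CPM, and asparagine synthetase ASNS at 88.4, 114, 92.3 and 52.1 CPM. FTH1, the heavy chain of the iron store ferritin and the gene with the most UMIs of those named, was at 21113, 22978, 19018 and 15451 CPM, 1.37-fold lower at 4 µM (1.36 to 1.38). ALDH1B1, a mitochondrial aldehyde dehydrogenase, was the 1 gene of 33 on the NRF2 and ferroptosis list that was 2-fold higher, at 14.5, 19.5, 31.9 and 51.7 CPM (3.57-fold, 2.86 to 4.501). PPARGC1A, a coactivator of mitochondrial biogenesis, was the 1 of 26 on the fatty acid list, at 20.9 against 9.79 CPM (2.14-fold, 1.60 to 2.89). Without cells at 20% or more mitochondrial UMIs PPARGC1A was under 2-fold. On the p53 list the stress cytokine GDF15 was the 1 of 25 that was lower, at 33.6, 47.6, 22.9 and 16.1 CPM (2.09-fold, 1.67 to 2.62), and its value at 1 µM lay above that at 500 nM. Of 12 measured complement and innate defence genes 1 was lower, the pattern receptor PTX3, at 5.50 against 12.7 CPM (2.31-fold, 1.58 to 3.43).

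Few genes of the cell cycle were 2-fold different between the doses. Of 35 measured S-phase genes BRIP1, a helicase of DNA repair, was 2-fold higher (63.1 against 29.2 CPM, 2.16-fold, 1.83 to 2.56) and 0 were lower, with a median log2 ratio of -0.12. The 50 measured genes of G2 and mitosis had a median of -0.07, and 0 reached 2-fold. A ratio below 0 was found for 25 of the S-phase genes and 31 of the G2 and mitosis genes. Of 12 measured genes of drug efflux and dabrafenib metabolism the pump ABCC3 was higher at 86.9 against 41.2 CPM (2.11-fold, 1.83 to 2.43), and ABCB4, a phospholipid flippase, was lower at 4.71 against 10.8 CPM (2.29-fold, 1.52 to 3.52). Cytosolic ribosomal protein genes had a median of -0.01 over 75 genes, none of them 2-fold different.

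**Figure D3:**
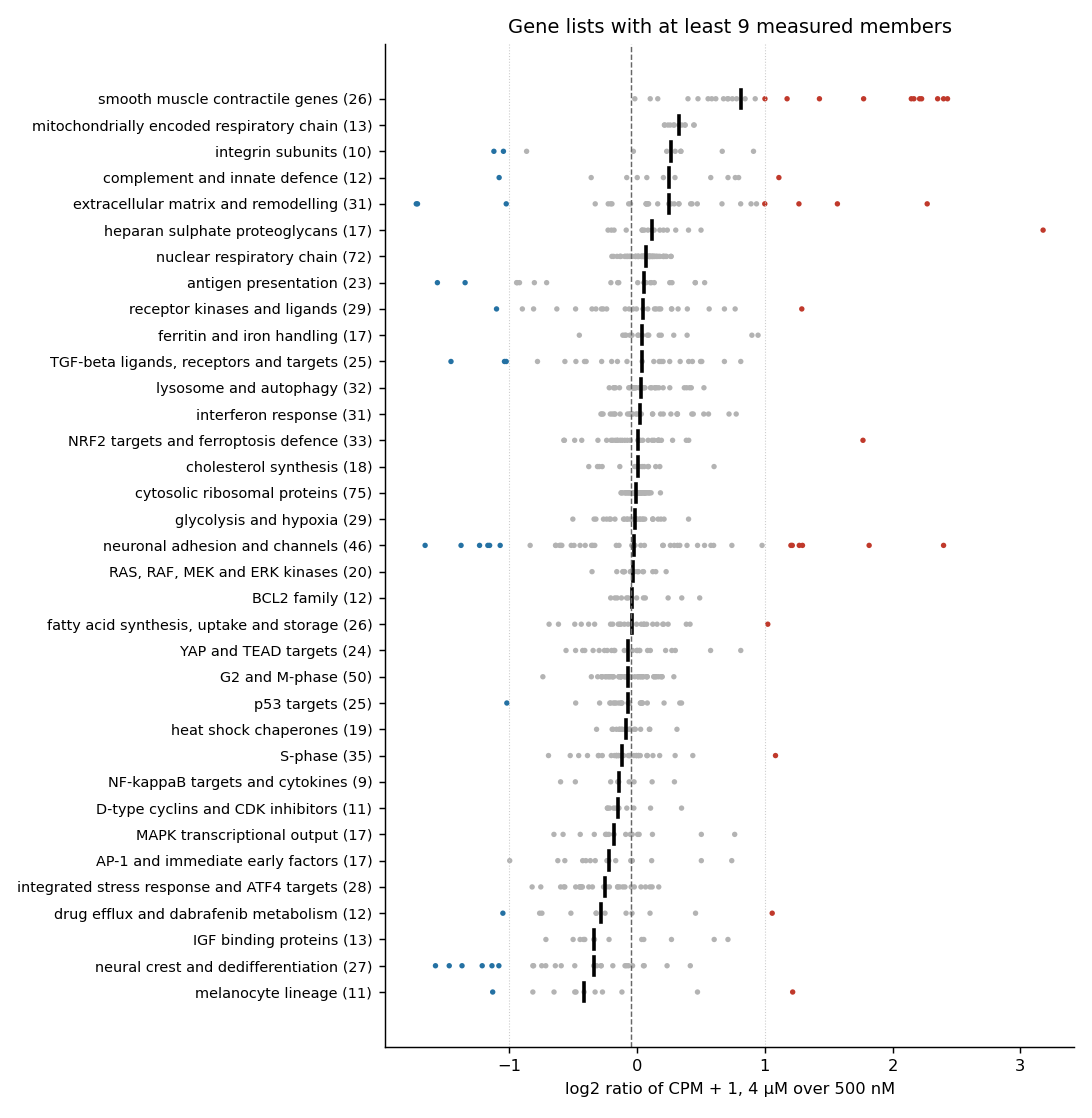
Each row is a gene list with at least 9 measured members, their number in parentheses, and each point is the log2 ratio of CPM + 1 of a member, 4 µM over 500 nM; black bars are list medians, the dashed line is the median of all measured genes (-0.05), and dotted lines mark 2-fold. Smooth muscle contractile genes have the highest median (0.81) with 11 members in red at 2-fold or more, and the neural crest list has 6 members in blue at 2-fold lower.

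Markers of cells other than melanoma were looked at because contractile and matrix genes also belong to fibroblasts and mural cells. Of 10 fibroblast markers 4 were measured, and 2 of them, COL3A1 and LUM, were 2-fold higher, with a summed level of 53.6, 59.6, 79.2 and 116 CPM over the 4 doses. Of 12 markers of vascular smooth muscle and pericytes 6 were measured and 3 were 2-fold higher, CNN1, ACTG2 and the channel subunit ABCC9 (14.7 against 3.65 CPM, 4.01-fold, 2.58 to 6.46), with a summed level of 160.5, 175, 201 and 245 CPM. RGS5 and CSPG4, taken here as pericyte markers, were at 18.7 against 18.6 CPM and 22.5 against 21.3 CPM. PDGFRB, taken here as a fibroblast marker, was at 12.4 against 11.1 CPM. None of these 3 genes is particular to 1 cell type. None of the 9 endothelial markers in the table was measured (summed 5.37 against 6.72 CPM, ERG without a UMI), and immune, epithelial and erythroid markers had 1, 2 and 1 measured members, none of them 2-fold different. The melanocyte genes MITF and GPNMB, at 91.1 and 92.3 CPM, remained among the measured genes at 4 µM. The part of other cells in the result was not tested.

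The differences were then read per cell, after each cell had been thinned to 4000 UMIs so that depth was equal. This left out 65, 38, 45 and 80 shallower cells of the 4 populations in order of dose and kept 613, 816, 788 and 625. A TAGLN UMI was found in 51.5% of cells at 500 nM (47.5 to 55.6), 68.3% at 1 µM, 81.9% at 2 µM and 90.4% at 4 µM (87.8 to 92.6), and the median cell held 1, 2, 5 and 12 TAGLN UMIs. Before thinning the shares were 60.3% at 500 nM and 90.6% at 4 µM. All cells were read in 1 pool, where free RNA can give a UMI to a cell that does not express a gene. The 250 nM cells of the pool, with a median of 8231 UMIs per cell, had a TAGLN UMI in 17.7% (15.2 to 20.4). Among the untreated cells and those at 30 to 250 nM the share lay between 13.3% (untreated) and 25.2% (30 nM). How much of any of these shares is free RNA was not tested. GPC5 UMIs were in 21.4% (18.2 to 24.8), 42.0%, 60.4% and 72.8% (69.1 to 76.3) of cells, against 7.47% at 250 nM, and ACTA2 UMIs in 29.2%, 39.7%, 57.6% and 71.0%, against 11.3% at 250 nM. Unthinned, they were in 30.97% and 82.8% of cells for GPC5, and in 42.5% and 78.4% for ACTA2, at 500 nM and 4 µM. Higher summed levels of TAGLN, GPC5 and ACTA2 thus came with more cells holding a UMI.

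The lower genes gave another picture per cell. NFATC2 UMIs were in 42.7% of cells at 500 nM (38.8 to 46.8), 26.2% at 1 µM, 26.1% at 2 µM and 25.4% at 4 µM (22.1 to 29.05), and the cell at the 90th percentile held 6, 2, 2 and 1 UMIs. HLA-DRB1 UMIs were in 31.5% (27.8 to 35.3), 12.4%, 12.4% and 13.6% (11.01 to 16.5), and SOX10 UMIs in 19.4% (16.4 to 22.8), 8.33%, 9.01% and 8.32% (6.28 to 10.8). Unthinned, the shares at 500 nM and 4 µM were 59.4% and 40.3% for NFATC2, 37.9% and 21.4% for HLA-DRB1, and 31.1% and 18.4% for SOX10. At 250 nM the thinned shares were 89.9%, 74.6% and 55.6%. For NFATC2, HLA-DRB1 and SOX10 the intervals of these thinned shares overlapped among the 3 doses from 1 µM up, while the summed level of SOX10 was 1.31-fold higher at 4 µM than at 2 µM (1.11 to 1.56). How much of their shares is free RNA from the other cells of the pool was not tested.

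**Figure D4:**
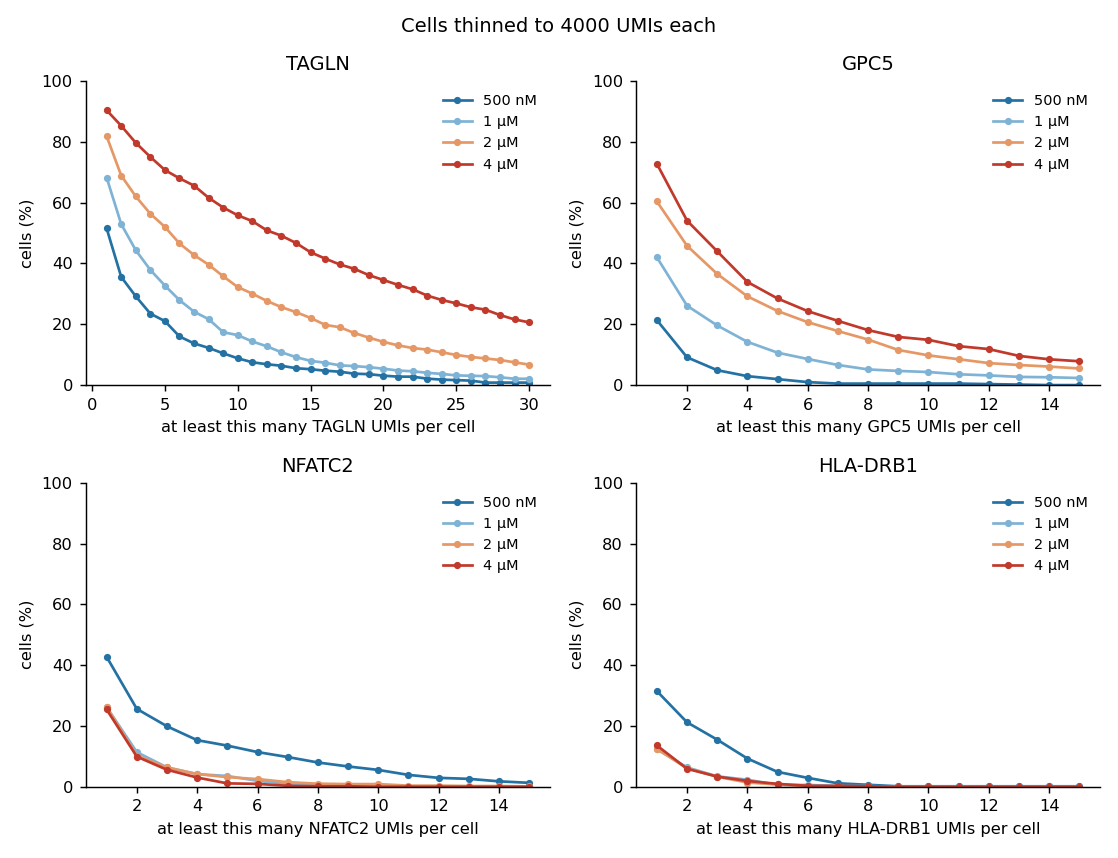
For 4 genes the share of cells with at least the number of UMIs on the x axis is drawn for the 500 nM, 1 µM, 2 µM and 4 µM populations, with every cell thinned to 4000 UMIs. The curves of TAGLN and GPC5 lie in the order of the dose, from 51.5% to 90.4% of cells with at least 1 TAGLN UMI, whereas those of NFATC2 and HLA-DRB1 separate 500 nM from 3 curves that lie together.

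The authors' cluster numbers allowed the same genes to be compared between cells of the same cluster. Cells that are not listed have no cluster number and do not enter any value within clusters. The clusters were made from expression, so which cells a cluster holds depends on these genes, and clusters are named by number only. Clusters 6 and 7 held 293 of the listed cells at 500 nM and 331 at 4 µM, with medians of 8721 and 9291 UMIs per cell. Clusters 2 and 3 held 159 and 61, with medians of 6830 and 11152 UMIs per cell, and this gap in depth lies beside all values within them. Of the listed cells, clusters 2 and 3 made up 81.6% at 250 nM and 32.3% at 500 nM. They made up 12.2% at 1 µM, 11.7% at 2 µM and 13.4% at 4 µM. Clusters 6 and 7 made up 59.4%, 80.5%, 81.1% and 72.7% from 500 nM to 4 µM. Cluster 5 made up 3.25% at 500 nM and 12.3% at 4 µM. The part of these shares in the differences between doses was not tested.

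Within clusters 6 and 7 the smooth muscle genes and GPC5 differed as in all cells. TAGLN was at 5472 CPM at 4 µM against 1054 at 500 nM (5.19-fold, 4.99 to 5.40), GPC5 at 1341 against 147 CPM (9.10-fold, 8.21 to 10.1), ACTA2 at 1260.4 against 298 CPM (4.23-fold, 3.93 to 4.57) and CACNA1C at 194 against 47.8 CPM (4.06-fold, 3.36 to 4.94). Within cluster 6 alone TAGLN was 6.07-fold higher (5.71 to 6.45), and within cluster 7 alone 4.02-fold (3.82 to 4.24). Within clusters 2 and 3 the same genes were also higher, TAGLN at 2046 against 126 CPM (16.3-fold, 13.8 to 19.4) and GPC5 at 557 against 28.2 CPM (19.8-fold, 13.97 to 28.8). MMP3, PLAC8 and DKK1 were lower in clusters 6 and 7 by 13.8-fold (6.43 to 35.5), 3.41-fold (2.37 to 5.02) and 2.85-fold (2.33 to 3.50). For DKK1 the value within clusters 2 and 3 was 44.5 against 37.8 CPM, with an interval of the ratio that includes 1 (0.722 to 1.89). PLAC8 was at 12.9 against 11.3 CPM there (1.15-fold higher, 0.438 to 2.84), and MMP3 had 1 UMI at 4 µM and 5 at 500 nM, too few to tell a difference. PDGFD, 2-fold higher in all cells, had 11 UMIs at 4 µM and 6 at 500 nM in clusters 6 and 7. In clusters 2 and 3 it had 3 and 6, while all cells held 153 and 52. KCND2 had 14 and 5 UMIs in clusters 6 and 7 and 3 and 3 in clusters 2 and 3, of 94 and 19 in all cells. For PDGFD and KCND2 the intervals of the ratios in clusters 6 and 7 include 1. Which cells held the other UMIs was not tested.

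The glial, neural crest and class II genes were near level or low within clusters 6 and 7. There HLA-DRB1 stood at 12.0 CPM at 500 nM and 13.8 at 4 µM, SOX10 at 7.30 and 5.63, S100B at 4.74 and 6.88, and GRIK2 at 38.3 and 43.1. The intervals of these 4 ratios all include 1. ZNF536, ITGA2, FOXD3, CDH19 and ABCB4, which were lower in all cells, had log2 ratios of 1.14, 0.35, 0.16, 0.68 and 0.31 there, on 2, 53, 2, 7 and 5 UMIs at 500 nM and 9, 80, 3, 15 and 8 UMIs at 4 µM. The intervals of these ratios all include 1 as well, from 0.798 to 36.7 for ZNF536 and from 0.147 to 15.4 for FOXD3. Other genes lower from 1 µM on stayed lower in clusters 6 and 7. MGP was 4.23-fold lower (3.06 to 5.95), SCRG1 3.08-fold (1.49 to 6.83) and ITGB8 2.58-fold (1.90 to 3.55). NFATC2 was 1.83-fold lower (1.47 to 2.28) at 43.5 against 79.5 CPM, under 2-fold. In clusters 2 and 3, in contrast, HLA-DRB1 was at 698 CPM at 500 nM and 344 at 4 µM, and NFATC2 at 1361 and 555. At 500 nM and at 4 µM, cells of clusters 2 and 3 thus held more HLA-DRB1 and NFATC2 than cells of clusters 6 and 7.

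Counted over genes, 89 of the 98 higher genes were measured within clusters 6 and 7 and 66 of them were 2-fold higher there, where 121 of 9329 genes (1.3%) were. Of the 110 lower genes 55 were measured there and 29 were 2-fold lower, where 83 of all (0.89%) were. These counts share cells with the comparison that chose the genes and are a description.

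**Figure D5:**
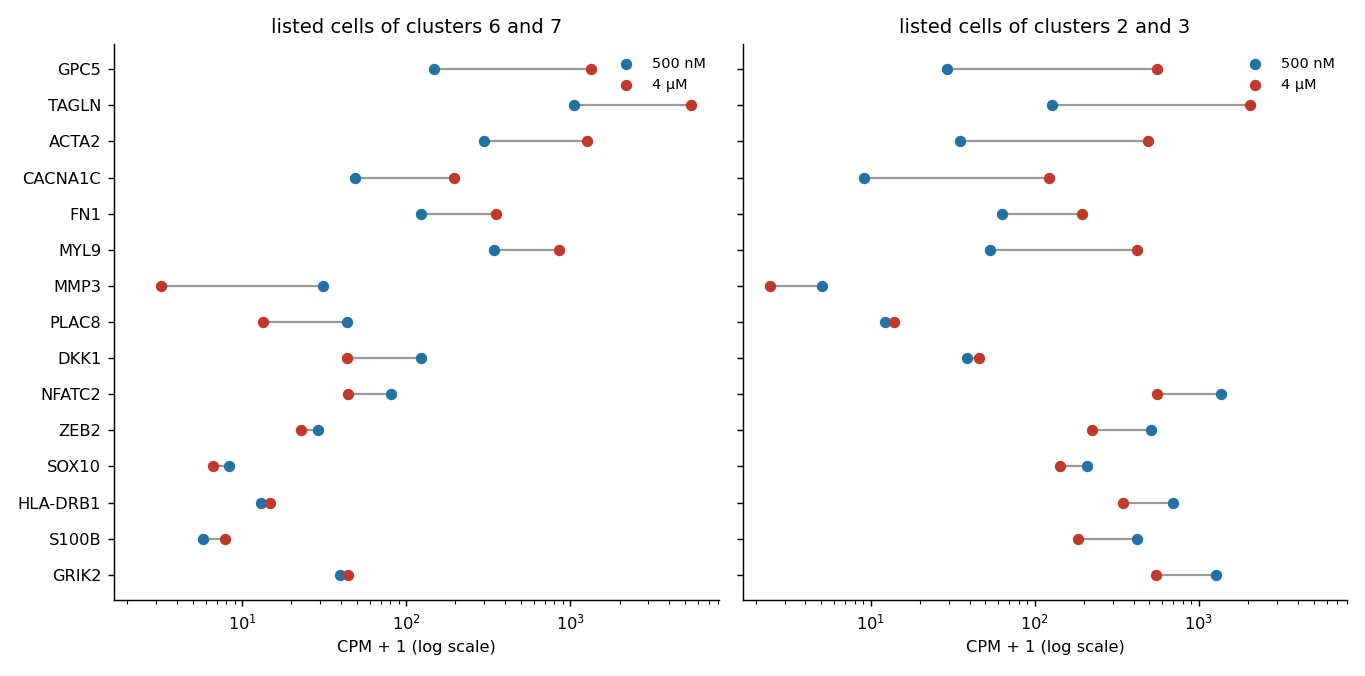
CPM + 1 of 15 genes, on a log scale, in listed cells of clusters 6 and 7 (left) and of clusters 2 and 3 (right), at 500 nM (blue) and 4 µM (red). TAGLN lies at 1054 and 5472 CPM on the left and at 126 and 2046 CPM on the right, while HLA-DRB1 lies at 12.0 and 13.8 CPM on the left and at 698 and 344 CPM on the right.

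The genes whose pattern over the 9 A375 cultures was most like that of TAGLN, of 7661 genes with 25 CPM or more in some culture, were CALD1, FN1, NABP1, CACNA1C and ACTA2, with Pearson correlations of log2(CPM + 1) from 0.997 down to 0.991. Most like GPC5 were LAMA1, TMEM132D, CACNA1C, LMO3 and MCTP2, from 0.988 down to 0.984. The 9 points share the pool and differ in depth, and the values are a description. NABP1, which encodes a single-stranded DNA-binding protein, was the 1 gene of these outside the groups above, at 45.9, 59.5, 74.3 and 110 CPM over the 4 doses.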

How the data were processed

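Single-cell RNA was measured in 9 A375 cultures read in 1 pool. Per the labels, the table the authors deposited holds raw counts of UMIs, and per the file headers their cell table gives each cell's total count of UMIs, the percent that is mitochondrial and its cluster. Cell Ranger 7.0.0 and GRCh38 are named in the submitters' processing notes. The annotation, the counting of introns, and how cells were filtered, listed and clustered are not given in the sources used here. The name of the authors' cell table ends in g1. Whether this means that only cells in the G1 phase of the cell cycle are listed is not stated there. Cells with the suffix T05 were taken as those labelled T0500. Names of cells do not tell the 2 sequencing runs apart. The tag libraries entered through those names alone, and the PC9 tables were not used here.

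All cells were kept and no doublet caller was run. Each population's UMIs were summed and scaled by their total (6841277 UMIs at 500 nM, 7637903 at 4 µM). Ratios are log2 of CPM + 1, folds are ratios of CPM with exact (Clopper-Pearson) 95% binomial intervals, and the floor is 3 counts. Without replicate cultures these cover counting error only. Shares of cells have exact binomial intervals. Each list was described by its counts and median.

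The members and the 41 gene lists were chosen with earlier results of these data known. Named genes are the 10 highest and 10 lowest ratios with 25 CPM or more, without clone-named, antisense and LINC genes, then BRAF, SPRY4, SOX10, FTH1, TAGLN and GPC5, up to 4 members of each list with the largest 2-fold ratios, and the 5 genes most like TAGLN and GPC5. Some genes that this rule takes are not reported here. Other genes named, and those drawn in figures, were chosen after their values were seen. Positions come from GENCODE v29 (99.7% of symbols found). Calculations used Python 3.11.15, numpy 2.4.6, scipy 1.17.1, pandas 2.3.3 and matplotlib 3.10.9, with TMM factors from edgeR 4.0.16 in R 4.3.3, and were tested on simulated data. Alternatives were another pseudocount, low-value filters, threshold, scaling, totals, cell sets, thinning and weighting of cells.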

Additional observations from a re-analysis of the deposited data

How the results depend on the processing

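The 50 named genes that were 2-fold different kept their direction under each alternative planned, and 38 to 50 of them stayed at 2-fold or more. Counts of genes moved with the settings. Given as higher and lower at 4 µM, then as different at the 500 nM to 1 µM, 1 to 2 µM and 2 to 4 µM steps, they were 98, 110, 124, 11 and 19. They were 64, 59, 76, 6 and 10 with a pseudocount of 5 CPM, 164, 187, 226, 36 and 56 without a filter on low values, and 32, 42, 50, 3 and 0 with a minimum of 50 CPM. At 3-fold they were 31, 18, 29, 2 and 2, and with cells thinned to 4000 UMIs 150, 195, 209, 22 and 50. With the mean of per-cell CPM they were 161 and 189, with 213 in the first step and 43 in the last. Without cells at 20% or more mitochondrial UMIs 83 genes were higher and 102 lower, and the named genes ITGB8 and PPARGC1A fell under 2-fold. Higher genes made up 47.1% of those different, and 63.3% at 3-fold. TMM scaling moved the median of all genes to -0.00.

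Both cell sets below were chosen after seeing the data. In listed cells of clusters 6 and 7 the first and second step held 45 and 21 genes, and 59.3% of genes different were higher. Of the 50 named genes 42 kept their direction there and 30 stayed at 2-fold, and the log2 ratio changed sign for ZNF536 (1.14), ITGA2 (0.35), S100B (0.46), FOXD3 (0.16), CDH19 (0.68), GRIK2 (0.17), HLA-DRB1 (0.18) and ABCB4 (0.31). Without cells over 2 times the median UMIs and without listed cells of clusters 2 and 3, 47 genes were lower, 38 different in the first step and 32 in the last, 69.9% of genes different were higher, and 49 of the 50 kept their direction, with ABCB4 at 0.48. The cause was not tested. No paired analysis was possible because each population is 1 culture, the runs cannot be told apart in the cell names, and no result comes from a test. Depth limits genes near 10 CPM, whose ratios have wide counting intervals.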

Other observations

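Several genes known from muscle and cell adhesion that are on none of the lists were also higher at 4 µM than at 500 nM. JPH2, a junctophilin that couples membranes in heart muscle, was at 30.5 against 12.6 CPM (2.43-fold, 1.89 to 3.15). FHOD3, a formin of the heart, was at 41.9 against 19.0 CPM (2.20-fold, 1.79 to 2.72), PDLIM3, a Z-line protein, at 25.8 against 12.1 CPM (2.13-fold, 1.64 to 2.78), and LDB3, a Z-disc protein, at 11.5 against 4.24 CPM. LIMS2 and TNS1, both of cell-matrix adhesions, were at 12.96 against 2.63 CPM (4.93-fold, 2.96 to 8.65) and 22.4 against 6.14 CPM (3.65-fold, 2.59 to 5.24). The intermediate filament gene SYNM, which is also a muscle gene, was lower at 41.2 against 103 CPM (2.50-fold, 2.19 to 2.87), with 316 CPM at 250 nM.

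Some genes departed from a step by step order. KRT17, a keratin of basal and stressed epithelium, was at 0.731, 3.59, 22.2 and 13.9 CPM from 500 nM to 4 µM. SLC1A3, a glutamate transporter, was at 13.2, 31.5, 39.4 and 28.7 CPM. CD24, a surface glycoprotein, was at 17.2, 13.6, 15.5 and 44.5 CPM, so that its whole difference lay between 2 and 4 µM, as it did for CDH6, a cadherin of kidney and neural crest, at 19.9, 16.9, 21.6 and 49.4 CPM. CNTN5, a contactin of neurons, kept to the order of the doses and was at 398, 609, 849 and 1095 CPM (2.75-fold, 2.63 to 2.87). HAPLN1, a link protein of the matrix, was at 42.0, 62.4, 114 and 115 CPM and at 231 CPM in untreated cells, so its 4 µM level lay under that of cells without drug.

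Signalling and transcription genes outside the report's lists were among the 98 and the 110 as well. NRG3, a neuregulin, was at 6.72, 16.5, 23.8 and 31.6 CPM (4.69-fold higher, 3.41 to 6.58), and PTPRD, a receptor phosphatase, at 14.2, 27.4, 41.5 and 47.0 CPM (3.31-fold, 2.64 to 4.19). LBH, a transcriptional cofactor, was at 20.9 against 3.07 CPM, and IDH2, the mitochondrial isocitrate dehydrogenase, at 16.2, 18.3, 22.9 and 39.8 CPM (2.45-fold, 1.97 to 3.08). Among the lower genes, the cytokine IL24 was at 24.995, 13.7, 3.76 and 6.28 CPM (3.98-fold, 2.87 to 5.60), and the thrombin receptor F2R at 68.7, 54.9, 40.6 and 31.4 CPM (2.19-fold, 1.87 to 2.56). FLT1, a VEGF receptor, at 20.9, 4.89, 6.96 and 6.15 CPM, and MEF2C, a transcription factor of muscle and nerve, at 51.5, 23.9, 20.1 and 23.7 CPM, had their whole difference between 500 nM and 1 µM.

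Among genes of peripheral nerve, PMP22 of Schwann cell myelin was lower at 83.0 against 183 CPM (2.21-fold, 2.00 to 2.43). PTPRZ1, a receptor phosphatase of glia, was at 28.4 against 84.3 CPM (2.97-fold, 2.54 to 3.49). Chromosome medians of the log2 ratio lay between -0.10 (chromosome 13) and 0.05 (chromosome 18) over all autosomes and X.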
